A study of Homo sapiens with 15 samples.

Results

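The genes described here make, transport, trim and load the peptides of MHC class I: TAP1, TAP2, TAPBP, B2M, PSMB8, PSMB9, PSMB10, HLA-E, NLRC5 and ERAP1. They were chosen by name. Of the 10 genes listed, 9 were measured by array features that carry only their own symbol, among 18377 genes in all, and HLA-E was not analysed here.

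Cells cut cytosolic proteins into peptides with the proteasome, whose catalytic subunits are exchanged for PSMB8, PSMB9 and PSMB10 when interferon is sensed, giving the immunoproteasome. The TAP1-TAP2 transporter moves the peptides into the endoplasmic reticulum, where ERAP1 trims them and TAPBP (tapasin) holds the heavy chain and B2M, the light chain, in place until a peptide is bound. NLRC5 is a coactivator that drives transcription of many of these genes, and tumour cells, prostate carcinoma among them, are known to lower parts of the route and so show fewer peptides to T cells.

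The study hybridised RNA of 2 established prostate cancer cell lines to 15 Affymetrix arrays (Human Gene 1.0 ST): PC3, which came from a bone metastasis (8 arrays), and DU145, which came from a brain metastasis (7 arrays). Each line was left untransfected or was reverse transfected, at 20 nM with the lipid reagent Lipofectamine, with a mimic of miR-224, a mimic of miR-452 or a scrambled mimic (labelled Scrambled no. 2), and RNA was taken 48 h later. A mimic is a short synthetic RNA duplex that loads the silencing complex with a chosen microRNA, so its level in the cell is not the natural one. Each group had 2 arrays, named by the letters of the labels, except the DU145 scrambled group, which had 1 because the authors excluded another.

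Values are log2 levels made by the authors with the lines normalized separately, so the levels of the members are not compared between lines or between genes. A change is a difference of log2 levels ± its standard error from limma, and it passed at an adjusted p (Benjamini-Hochberg over 18377 genes) under 0.05. The labels do not say that replicate arrays came from separate cultures, so each p reflects only how far these arrays lie apart, which may be technical. PC3 arrays had medians of 6.94 to 7.05 and DU145 arrays of 6.51 to 6.67, and replicate arrays correlated with r of 0.992 to 0.998 across features. As a check of the cell type, each marker was placed among all genes of its own line. Of the 4 epithelial markers, KRT8 and KRT18 stood at or above percentile 96.9 in both lines, EPCAM at 58.7 in PC3 and 81.7 in DU145, and CDH1 at 39.8 and 84.9. The 5 leukocyte markers lay between 2.26 (PTPRC) and 27.6 (CD14) in PC3 and between 5.75 (LYZ) and 36.5 (CD14) in DU145. The 5 fibroblast markers lay between 1.99 (DCN) and 69.6 (COL1A1) in PC3 and between 0.517 (LUM) and 58.4 (COL1A1) in DU145. The 4 endothelial markers lay between 18.7 (PECAM1) and 79.0 (KDR) in PC3 and between 3.81 (PECAM1) and 24.4 (CDH5) in DU145. Markers of other cell types were thus not all low, COL1A1 in both lines and KDR in PC3 being in the upper part of the range. None of the 5 measured leukocyte markers passed in either mimic against the scrambled mimic in PC3.

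The microRNAs are shown because every comparison turns on them; capitals mark the seed, bases 2 to 8, which pairs with target transcripts. The labels name neither the arm nor the mimic's own sequence, so both mature arms of each hairpin are given as in RefSeq (GRCh38.p14), where all 4 lie on the minus strand of chromosome X. The miR-224 arms span chrX:151958628-151958652 (5p) and chrX:151958584-151958606 (3p), and the miR-452 arms span chrX:151959678-151959699 (5p) and chrX:151959634-151959655 (3p).
hsa-miR-224-5p: uCAAGUCAcuagugguuccguuuag
hsa-miR-224-3p: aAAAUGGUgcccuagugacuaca
hsa-miR-452-5p: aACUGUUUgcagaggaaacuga
hsa-miR-452-3p: cUCAUCUGcaaagaaguaagug
No seed is shared among the 4 arms.

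In PC3, PSMB9 was 1.31-fold higher with miR-452 than with the scrambled mimic, where 5.22% of all genes passed. With miR-224, where 16.8% passed, TAPBP was 1.26-fold higher and B2M was 1.26-fold lower. Between the mimics, where 18.5% passed, B2M, PSMB9 and ERAP1 were higher after miR-452 than after miR-224. In DU145 no measured member passed against the scrambled mimic with miR-452 (2.1% of all genes passed) or miR-224 (1.94%). The changes that passed were small, between 1.24-fold and 1.46-fold in the direct comparisons with the scrambled mimic or between mimics.

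**Figure D1:**
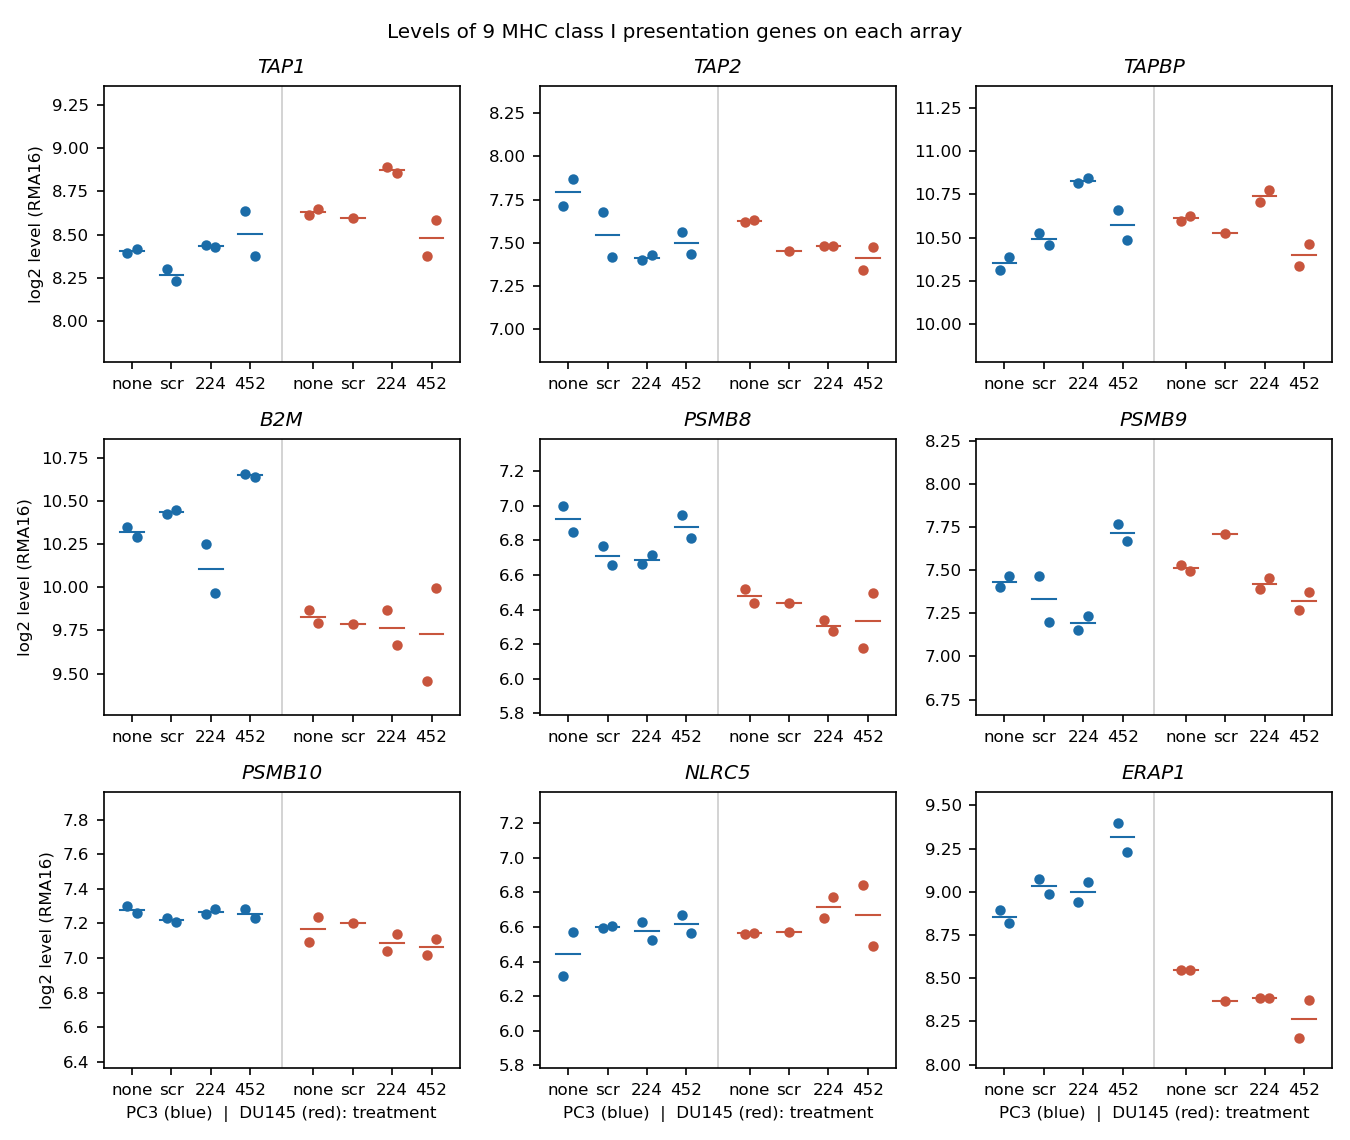
Log2 level (vertical axis, RMA16 values) of the 9 measured genes on each of 15 arrays, by treatment (none, untransfected; scr, scrambled; then miR-224 and miR-452), PC3 in blue and DU145 in red; each point is 1 array and each bar the group mean. In PC3, the PSMB9 points of miR-452 (7.77 and 7.67) lie above all other PC3 arrays, and the B2M points of miR-224 (10.25 and 9.96) lie below all others.

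The transporter subunit TAP1 read 8.40 and 8.41 on the untransfected PC3 arrays, 8.30 and 8.23 with the scrambled mimic, 8.44 and 8.43 with miR-224, and 8.63 and 8.38 with miR-452. Both mimic groups lay above the scrambled arrays without overlap, but the miR-452 arrays overlapped those of untransfected cells. The change with miR-452 was 0.24 ± 0.092 (limma adjusted p = 0.187, 95% interval 0.04 to 0.44) and with miR-224 0.17 ± 0.092 (adjusted p = 0.264, interval -0.03 to 0.37), neither of which passed. In DU145, TAP1 read 8.61 and 8.65 untransfected, 8.59 scrambled, 8.89 and 8.86 with miR-224, and 8.37 and 8.58 with miR-452. The miR-224 arrays were the highest of the line and the miR-452 arrays the lowest. TAP1 was lower with miR-452 than with miR-224 (-0.39 ± 0.095, 1.31-fold lower, limma adjusted p = 0.0412). That call was lost with untransfected b or c left out (adjusted p = 0.0994 each), miR-224 a (0.179) or c (0.2), or miR-452 a (-0.29, 0.0747), and under the replicate block (0.124). It was also lost when features with any or no symbol were tested together, without averaging (limma adjusted p = 0.0906).

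Of 2 RefSeq promoter windows of TAP1, 1 is shown from 250 bases before the start to the base before it (chr6:32853705-32853954, minus strand, GRCh38.p14). It is shown because 3 motifs tied to this pathway were searched in it on both strands. These were the core of the interferon-stimulated response element (GAAA, any 2 bases, GAAA), the gamma-activated site (TTC, any 3 bases, GAA) and the Y box (CCAAT). Capitals mark the matches.
TAP1: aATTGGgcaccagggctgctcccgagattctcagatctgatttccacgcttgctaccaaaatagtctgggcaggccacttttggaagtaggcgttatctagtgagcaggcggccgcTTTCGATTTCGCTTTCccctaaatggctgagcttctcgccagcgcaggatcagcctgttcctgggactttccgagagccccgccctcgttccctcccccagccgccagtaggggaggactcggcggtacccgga
A pair of overlapping response element cores lay from -134 to -125 and from -128 to -119, and a Y box from -249 to -245. The other TAP1 window, not shown, held a gamma-activated site from -189 to -181 and neither of the other motifs. Within windows of 300 bases, the response element core was found in 7 of 8 members with a window, against 3.57% of all 35116 windows, the gamma-activated site in 2 against 7.66%, and the Y box in 4 against 34.6%. The Y boxes of TAP1 and PSMB9 are the same bases read on opposite strands, counted for both members. A member can have more than 1 window (11 windows for the 8 members), which raises its chance of a match, and a match is a description of letters, not of a bound site.

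TAP2, the partner subunit, read 7.71 and 7.87 on the untransfected PC3 arrays, 7.68 and 7.41 scrambled, 7.40 and 7.43 with miR-224, and 7.56 and 7.44 with miR-452. The untransfected arrays were the highest, and the scrambled arrays, the most spread pair, overlapped both mimic groups. TAP2 did not pass against the scrambled mimic (miR-452 -0.05, interval -0.27 to 0.17; miR-224 -0.13, interval -0.35 to 0.09). It was lower with miR-224 than in untransfected cells (-0.38 ± 0.10, limma adjusted p = 0.037), where the scrambled mimic itself gave -0.25 ± 0.10 (adjusted p = 0.114). Over features with any or no symbol, none of its features passed for miR-224 against untransfected cells (limma adjusted p of 0.0839 to 0.113). In DU145 TAP2 ranged from 7.34 to 7.63 over 7 arrays, with both untransfected arrays at the top, and did not pass in any comparison.

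Tapasin (TAPBP) read 10.31 and 10.39 on the untransfected PC3 arrays, 10.53 and 10.46 scrambled, 10.82 and 10.84 with miR-224, and 10.66 and 10.48 with miR-452. The miR-224 arrays lay above all other PC3 arrays, and the miR-452 and scrambled arrays overlapped. TAPBP after miR-224 exceeded the scrambled level (0.34 ± 0.084, limma adjusted p = 0.018) and that of untransfected cells (0.48 ± 0.084, adjusted p = 0.00504), whereas miR-452 against the scrambled mimic gave 0.08 (interval -0.11 to 0.26). The call against the scrambled mimic was lost without scrambled c (0.30, adjusted p = 0.0922), miR-224 a (0.35, 0.0675) or miR-224 b (0.32, 0.129), and under the replicate block (0.32, 0.133). In DU145 TAPBP read 10.60 and 10.63 untransfected, 10.53 scrambled, 10.71 and 10.77 with miR-224, and 10.34 and 10.46 with miR-452. The order of the miR-224 and miR-452 arrays was that seen for TAP1, with miR-224 highest and miR-452 lowest. The change with miR-224 against the scrambled array was 0.22 ± 0.11 (limma adjusted p = 0.452), and miR-452 minus miR-224 was -0.34 ± 0.087 (adjusted p = 0.052). The latter missed the threshold but passed in 7 of the 16 alternatives. TAPBP was read by 3 features whose levels differed by up to 1.27 on an array and which correlated with r of at least 0.90 over the arrays. Its window (chr6:33314079-33314328, minus strand) holds overlapping response element cores from -20 to -11 and from -14 to -5, in capitals.
TAPBP: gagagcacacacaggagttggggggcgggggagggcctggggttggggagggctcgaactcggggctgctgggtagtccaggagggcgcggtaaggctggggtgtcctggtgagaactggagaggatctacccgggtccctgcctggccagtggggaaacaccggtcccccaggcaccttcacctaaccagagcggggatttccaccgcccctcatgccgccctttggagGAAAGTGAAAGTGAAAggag

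B2M, the light chain shared by all class I molecules, read 10.35 and 10.29 on the untransfected PC3 arrays, 10.43 and 10.45 scrambled, 10.25 and 9.96 with miR-224, and 10.66 and 10.64 with miR-452. The miR-224 arrays were the lowest and the miR-452 arrays the highest of the line, with no overlap between any of the treated groups, though the miR-224 arrays lay apart from each other. B2M was lower after miR-224 than on the scrambled arrays (-0.33 ± 0.095, limma adjusted p = 0.0346), and miR-452 gave 0.21 ± 0.095 (adjusted p = 0.277, interval 0.00 to 0.42). It was higher with miR-452 than with miR-224 (0.54 ± 0.095, 1.46-fold, adjusted p = 0.00225) and than in untransfected cells (0.33 ± 0.095, adjusted p = 0.0316). The call against untransfected cells was lost over features with any or no symbol (limma adjusted p = 0.0625). The difference between mimics passed in every alternative run, while the fall with miR-224 was lost with untransfected b or c left out (adjusted p = 0.0524 each), scrambled b (0.08) or c (0.121), or miR-224 b (-0.19, 0.382). It was also lost against the untransfected arrays (-0.21, adjusted p = 0.2) and over features with any or no symbol (0.0751). In RNA of a whole culture, less B2M RNA per cell and fewer cells with B2M RNA cannot be told apart.

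In DU145, B2M read 9.87 and 9.79 untransfected, 9.79 scrambled, 9.87 and 9.66 with miR-224, and 9.46 and 10.00 with miR-452. The miR-452 arrays were the lowest and the highest of the line, so the groups overlapped. The changes against the scrambled array were -0.06 (interval -0.48 to 0.37) with miR-452 and -0.02 (interval -0.45 to 0.41) with miR-224. On miR-452 array a, 8 of the 9 genes read lower than on array c, NLRC5 being the exception. The window of B2M (chr15:44711267-44711516, plus strand) holds overlapping response element cores from -144 to -135 and from -138 to -129 and a Y box from -49 to -45, in capitals.
B2M: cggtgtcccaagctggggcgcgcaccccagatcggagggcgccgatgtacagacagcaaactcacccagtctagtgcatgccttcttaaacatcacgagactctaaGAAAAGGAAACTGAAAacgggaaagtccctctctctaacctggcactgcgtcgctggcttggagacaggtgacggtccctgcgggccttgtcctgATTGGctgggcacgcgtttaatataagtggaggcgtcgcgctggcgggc

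PSMB9, an immunoproteasome subunit that replaces the constitutive PSMB6, read 7.40 and 7.46 on the untransfected PC3 arrays, 7.46 and 7.20 scrambled, 7.15 and 7.23 with miR-224, and 7.77 and 7.67 with miR-452. The miR-452 arrays lay above all other PC3 arrays, and the miR-224 arrays overlapped the wide scrambled pair. PSMB9 was higher with miR-452 than with the scrambled mimic (0.38 ± 0.096, 1.31-fold, limma adjusted p = 0.0409) and than with miR-224 (0.52 ± 0.096, 1.44-fold, adjusted p = 0.00287). Against untransfected cells miR-452 gave 0.28 ± 0.096 (adjusted p = 0.0535), and miR-224 against the scrambled mimic gave -0.14 (interval -0.35 to 0.07). The difference between mimics passed in every alternative run, and that against the scrambled mimic was lost when any PC3 array but scrambled b was left out. The adjusted p without an array ran from 0.0555 (miR-224 a or b) through 0.0671 (untransfected b or c), 0.102 (miR-452 c) and 0.179 (scrambled c, 0.25) to 0.213 (miR-452 b), and over features with any or no symbol it was 0.107.

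In DU145, PSMB9 read 7.53 and 7.50 untransfected, 7.71 scrambled, 7.39 and 7.46 with miR-224, and 7.27 and 7.37 with miR-452. The scrambled array was the highest of the line and the miR-452 arrays the lowest. The change with miR-452 was -0.39 ± 0.10 against the scrambled array (limma adjusted p = 0.095) and -0.19 ± 0.086 against untransfected cells (adjusted p = 0.112). The change of PSMB9 with miR-452 differed between the lines by 0.77 ± 0.14 (PC3 minus DU145, limma adjusted p = 0.0267). With untransfected cells as the control that difference was 0.48 (adjusted p = 0.0673). It was also lost without PC3 scrambled c (0.64, adjusted p = 0.0936), PC3 miR-452 b (0.0903) or c (0.0603), DU145 untransfected b or c (0.056 each) or DU145 miR-452 a (0.0563), and under the replicate block (0.70, adjusted p = 1.00). PSMB9 lies head to head with TAP1, and its window (chr6:32853942-32854191, plus strand) shares 13 bases with the TAP1 window shown above, the Y box at -243 to -239 among them. The window held neither of the other motifs.
PSMB9: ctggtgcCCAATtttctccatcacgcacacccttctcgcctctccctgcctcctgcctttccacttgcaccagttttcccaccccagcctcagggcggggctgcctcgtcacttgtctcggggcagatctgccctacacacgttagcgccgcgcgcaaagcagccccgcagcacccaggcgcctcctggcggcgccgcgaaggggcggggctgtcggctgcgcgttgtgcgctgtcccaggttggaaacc

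PSMB8, which replaces PSMB5, read 7.00 and 6.85 on the untransfected PC3 arrays, 6.77 and 6.66 scrambled, 6.66 and 6.71 with miR-224, and 6.95 and 6.81 with miR-452. The miR-452 arrays lay above the scrambled ones but overlapped those of untransfected cells. The change with miR-452 was 0.17 ± 0.087 (limma adjusted p = 0.371, interval -0.02 to 0.36), and the scrambled mimic against untransfected cells gave -0.21 ± 0.087 (adjusted p = 0.118). In DU145 PSMB8 ranged from 6.18 to 6.52, the lowest on miR-452 a and the highest on untransfected b, and did not pass in any comparison. PSMB10, which replaces PSMB7, was the least variable of the 9 genes in PC3, at 7.21 to 7.30 over 8 arrays, and ranged from 7.02 to 7.24 in DU145. Its changes against the scrambled mimic lay between -0.14 and 0.05 in the 2 lines and did not pass.

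The coactivator NLRC5 read 6.32 and 6.57 on the untransfected PC3 arrays, 6.59 and 6.60 scrambled, 6.63 and 6.52 with miR-224, and 6.67 and 6.57 with miR-452. The transfected groups overlapped throughout, and only untransfected b stood below them. Its change with miR-452 was 0.02 (95% interval -0.19 to 0.22) and with miR-224 -0.02 (interval -0.23 to 0.18). In DU145 the values ran from 6.49 to 6.85, both on miR-452 arrays, and NLRC5 did not pass in any comparison.

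The aminopeptidase ERAP1 read 8.90 and 8.82 on the untransfected PC3 arrays, 9.08 and 8.99 scrambled, 8.94 and 9.06 with miR-224, and 9.40 and 9.23 with miR-452. The miR-452 arrays were the highest of the line, and the miR-224 and scrambled arrays overlapped above the untransfected ones. ERAP1 was higher with miR-452 than with miR-224 (0.32 ± 0.088, 1.24-fold, limma adjusted p = 0.0271) and than in untransfected cells (0.46 ± 0.088, adjusted p = 0.0052), while against the scrambled mimic it gave 0.28 ± 0.088 (adjusted p = 0.0962). The difference between mimics was lost without miR-224 a (0.26, adjusted p = 0.185), miR-224 b (0.0643) or miR-452 b (0.23, 0.183), under the replicate block (0.31, 0.109) and over features with any or no symbol (0.0552). In DU145 it read 8.55 and 8.55 untransfected, 8.37 scrambled, 8.39 and 8.39 with miR-224, and 8.16 and 8.37 with miR-452. There the untransfected arrays were the highest and every transfected array was lower. The fall with miR-452 against untransfected cells was -0.28 ± 0.095 (limma adjusted p = 0.0494), beside -0.18 ± 0.12 for the scrambled array (adjusted p = 0.291). That call was lost over features with any or no symbol (limma adjusted p = 0.0664).

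**Figure D2:**
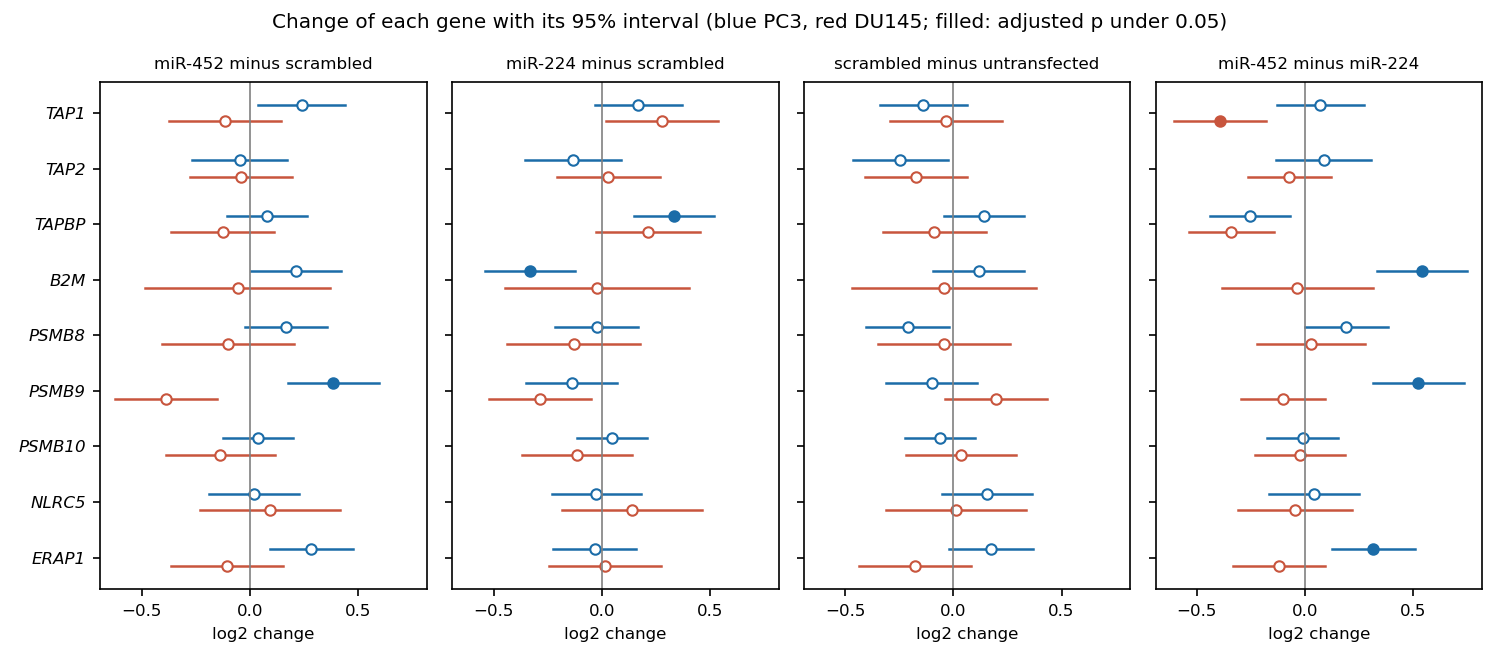
Log2 change (horizontal axis) of each gene in 4 comparisons, with its 95% interval from limma; PC3 in blue, DU145 in red, filled where the adjusted p was under 0.05. In PC3 the filled points are PSMB9 for miR-452 (0.38), TAPBP (0.34) and B2M (-0.33) for miR-224, and B2M, PSMB9 and ERAP1 between the mimics (0.54, 0.52 and 0.32); in DU145 only TAP1 between the mimics is filled (-0.39).

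The counts of members were read against the share of all 18377 genes that passed in the same comparison. In PC3, miR-452 against the scrambled mimic gave 1 of 9 members higher and 0 lower, where 5.22% of all genes passed. The median change was 0.17 for the members and 0.01 for all genes, with 8 of 9 members above 0. With miR-224, 1 of 9 was higher and 1 lower where 16.8% passed, and the median was -0.02 against -0.01. The scrambled mimic against untransfected cells gave 0 of 9 by limma, where 14.2% of all genes passed, with 2 lower at an unadjusted p under 0.05, where 33.8% did. Between the mimics 3 of 9 were higher with miR-452 where 18.5% of all genes passed. Against untransfected cells, 2 of 9 were higher with miR-452 (22.2% of all genes passed) and with miR-224 1 was higher and 1 lower (9.69%). With 9 members, each of these counts lay within 2 genes of what the share of all genes would give. These comparisons share control or mimic arrays and are not independent of each other. In PC3 the endothelial marker KDR was also higher with miR-224 than scrambled (0.63 ± 0.11, limma adjusted p = 0.00253), the only 1 of 4 measured endothelial markers to pass. The mean level of the 4 was 6.91 to 6.97 with miR-224, 6.71 to 6.81 scrambled and 6.85 to 6.87 untransfected. Against untransfected cells, 1 of the 4 was lower with the scrambled mimic and 0 passed with miR-224. The part of KDR in the miR-224 results was not tested.

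In DU145, miR-452 against the scrambled array gave 0 of 9 by limma, where 2.1% of all genes passed, with 1 lower at an unadjusted p under 0.05, where 15.5% did. The median was -0.11 for the members and -0.02 for all genes, and 8 of 9 were below 0. With miR-224 the count was also 0 of 9, where 1.94% passed, with 1 higher and 1 lower at an unadjusted p under 0.05, where 13.3% did. For the scrambled array against untransfected cells it was 0 of 9, where 11.8% passed, with 0 at an unadjusted p under 0.05, where 33.6% did. Between the mimics 1 of 9 was lower with miR-452 (5.91%). Against untransfected cells 1 of 9 was lower with miR-452 (28.2%) and 0 of 9 passed with miR-224 (21%), with 1 higher at an unadjusted p under 0.05, where 39.7% did. The changes of the lines differed for 1 of 9 members with miR-452 (0.62% of all genes), for 0 with miR-224 (1.15%) and for 0 with the scrambled mimic (0.207%). At an unadjusted p under 0.05 those counts were 3, 0 and 1, where 10.5%, 12.8% and 9.29% of all genes passed. Beside PSMB9, TAP1 differed by 0.36 ± 0.15 (limma adjusted p = 0.389) and ERAP1 by 0.39 ± 0.14 (adjusted p = 0.303). The line difference of ERAP1 with miR-452 did pass with untransfected arrays as the control (0.74) and with the mean of both controls (0.57).

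Around the members, 91 further genes were listed in 9 groups and 78 were measured. The groups reach beyond class I presentation to interferon signalling, receptors, class II and surface ligands, so their pooled counts do not describe that pathway alone. In PC3, 7 were higher and 2 lower with miR-452, where 5.22% of all genes passed, and 14 were higher and 2 lower with miR-224, where 16.8% passed, with medians of 0.04 and 0.01. The scrambled mimic against untransfected cells gave 2 higher and 7 lower, where 14.2% passed. In DU145 1 was higher with miR-452 (PDCD1LG2), 1 was lower (PSME1, a proteasome activator subunit, -0.57 ± 0.11, limma adjusted p = 0.0342, named after its value was seen) and 0 passed with miR-224, where 2.1% and 1.94% of all genes passed. The change of PSME1 with miR-452 differed between the lines by 0.67 ± 0.13 (PC3 minus DU145, adjusted p = 0.036). Among 5 measured chaperones and trimming enzymes none passed with miR-452 in PC3. The lectin chaperone CANX gave -0.43 ± 0.11 (limma adjusted p = 0.0577), CALR -0.10 and the trimming enzyme ERAP2 0.33 ± 0.11 (adjusted p = 0.126). With miR-224, UGGT1, the folding sensor of the endoplasmic reticulum, was higher (0.57 ± 0.090, adjusted p = 0.00167). Its scrambled arrays lay below the untransfected ones (-0.67 ± 0.090, limma adjusted p = 0.00232), and against untransfected cells miR-224 gave -0.10 (adjusted p = 0.542). Of the 7 proteasome partners none passed with miR-452, the constitutive subunits PSMB5, PSMB6 and PSMB7 giving -0.34, -0.32 and -0.15 (adjusted p of 0.0943, 0.277 and 0.533). With miR-224 PSMB5 was lower (-0.63 ± 0.11, adjusted p = 0.00222) and the proteasome activator PSME3 was higher (0.33 ± 0.093, adjusted p = 0.0338). Of 6 cytosolic peptidases none passed with miR-452. With miR-224 2 were higher: TPP2, which makes peptides for later trimming (0.40 ± 0.079, adjusted p = 0.00529), and NRDC (0.27 ± 0.084, adjusted p = 0.0463), named after its value was seen. TPP2 was lower with the scrambled mimic than in untransfected cells (-0.39 ± 0.079, limma adjusted p = 0.0119), and miR-224 against untransfected cells gave 0.01 for TPP2 and 0.16 for NRDC, neither of which passed.

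Of 19 measured regulators and interferon signalling genes, 3 were higher with miR-452 in PC3 and none lower, where 5.22% of all genes passed, with a median of 0.15. Against untransfected cells 1 was higher and 2 were lower, where 22.2% passed. IRF9, the DNA-binding subunit of the factor that interferon activates, was higher by 0.81 ± 0.12 (limma adjusted p = 0.00183), NFKB1 by 0.43 ± 0.096 (0.0252) and NFYC, a subunit of the Y box factor, by 0.35 ± 0.074 (0.0188). NFKB1 was lower with the scrambled mimic than in untransfected cells (-0.47 ± 0.096, limma adjusted p = 0.0127). With miR-452 against untransfected cells IRF9 was higher (0.96, adjusted p = 0.000395), whereas NFKB1 gave -0.04 (0.782) and NFYC 0.15 (0.155). In DU145 IRF9 gave 0.07 ± 0.11, and the difference between the lines was 0.74 ± 0.17 (adjusted p = 0.0694). MX1, OAS1 and IFIT1, known as interferon-response genes and named after their values were seen, were higher with miR-452 in PC3 by 2.01, 1.58 and 1.27 (adjusted p = 3.58e-05 each) and gave 0.10, 0.01 and 0.13 in DU145. IFIT1 was also lower with the scrambled mimic than in untransfected PC3 cells (-0.35, limma adjusted p = 0.0232). The epithelial adhesion molecule EPCAM was higher with miR-452 in PC3 (1.52 ± 0.13, adjusted p = 7.39e-05), the only 1 of the 4 epithelial markers to pass. The part of these genes in the PSMB9 change was not tested. Of 13 receptors and interferons 1 was lower with miR-452: IFNAR2, a subunit of the type I interferon receptor (-0.50 ± 0.093, adjusted p = 0.00942), which was higher with miR-224 (0.35 ± 0.093, adjusted p = 0.0237). IFNAR2 was also lower with the scrambled mimic than in untransfected cells (-0.39 ± 0.093, limma adjusted p = 0.0211), against which miR-452 gave -0.89 (adjusted p = 0.000167) and miR-224 -0.04 (0.829). None of 9 class II genes passed with miR-452, and IFI30, a lysosomal thiol reductase, was lower with miR-224 (-0.32 ± 0.095, adjusted p = 0.0416).

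Of 12 surface ligands that T cells and NK cells read beside class I, 3 were higher and 1 lower with miR-452 in PC3. In that comparison 5.22% of all genes passed. The checkpoint ligands PDCD1LG2 (PD-L2) and CD274 (PD-L1) were higher by 0.87 ± 0.085 (limma adjusted p = 0.000153) and 0.70 ± 0.10 (0.00207). In DU145 with miR-452 they gave 0.57 ± 0.10 (adjusted p = 0.0249) and 0.75 ± 0.19 (0.0737). The NKG2D ligand ULBP3 was higher with miR-452 (0.42 ± 0.098, adjusted p = 0.031) and with miR-224 (0.87 ± 0.098, adjusted p = 0.000273) in PC3, where ULBP1 was lower with miR-452 (-0.32 ± 0.084, adjusted p = 0.0489). With miR-224, 5 of the 12 were higher, where 16.8% of all genes passed. They were ULBP3, CD274 (0.45 ± 0.10, limma adjusted p = 0.0107), MICA (0.40), MICB (0.60) and CD276 (0.34). MICA, MICB and CD276 were named after their values were seen, and MICA and MICB are also NKG2D ligands. Of 7 turnover genes, the ubiquitin ligase MARCHF4 was higher with miR-452 (0.37 ± 0.083, limma adjusted p = 0.024), and MARCHF8 (0.62 ± 0.10, 0.00236) and SUSD6 (0.43 ± 0.089, 0.00654) with miR-224. The shares of all genes that passed were again 5.22% with miR-452 and 16.8% with miR-224. The scrambled mimic itself moved 2 of these named genes in PC3 against untransfected cells: ULBP3 was lower (-0.39 ± 0.098, limma adjusted p = 0.0266) and PDCD1LG2 higher (0.34 ± 0.085, 0.0254). Against untransfected cells ULBP3 with miR-452 gave 0.03 (adjusted p = 0.833) and SUSD6 with miR-224 0.20 (0.189).

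**Figure D3:**
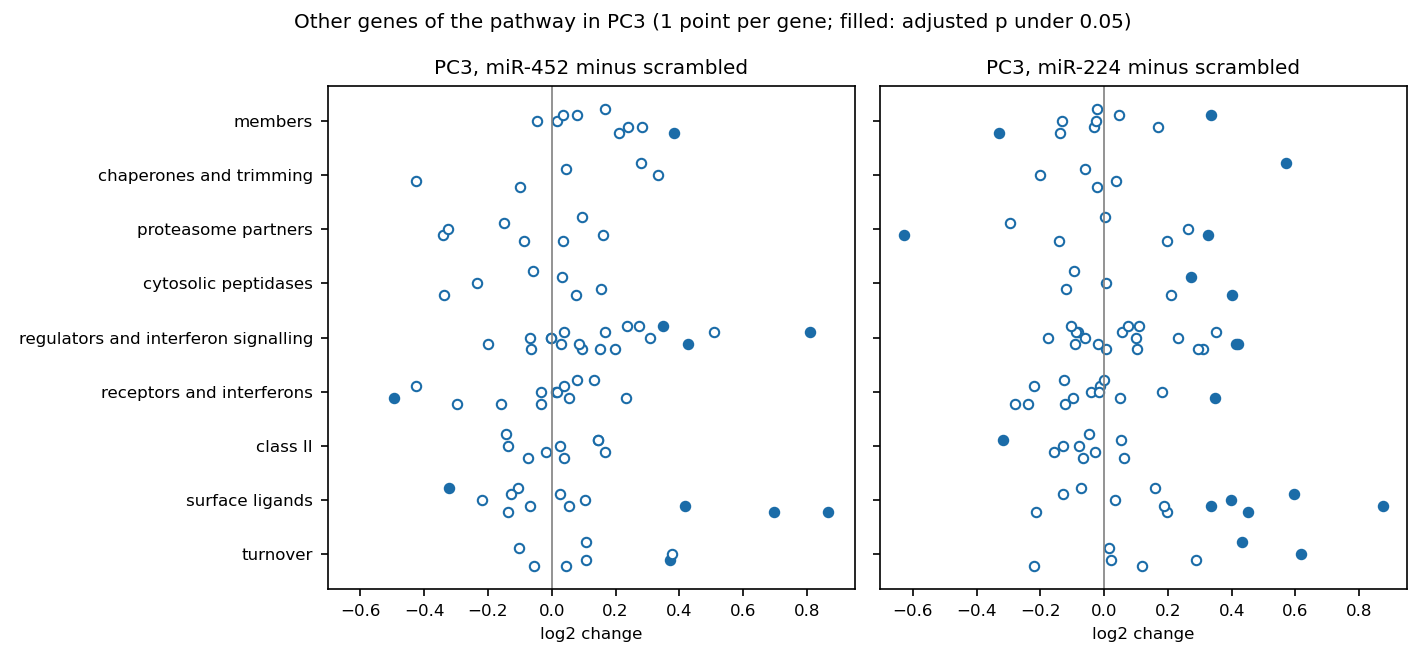
Log2 change (horizontal axis) of each measured gene in PC3 with miR-452 (left) and miR-224 (right) against the scrambled mimic, 1 point per gene, in rows by group; filled points passed at an adjusted p under 0.05. With miR-452 the filled points furthest right are PDCD1LG2 (0.87) and IRF9 (0.81), and the members (top row) lie between -0.05 and 0.38.

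None of the 5 listed class I heavy chain genes had a feature of its own, but 6 features list a pair of them, 3 with HLA-C and HLA-B and 3 with HLA-F and HLA-B. Such a feature cannot be assigned to 1 gene, and the 3 features of a pair may share probes. The mean of the HLA-C and HLA-B features on the PC3 arrays was 10.81 and 10.91 untransfected, 11.00 and 10.87 scrambled, 9.89 and 9.72 with miR-224, and 10.94 and 10.89 with miR-452. In DU145 it was 11.74 and 11.71 untransfected, 11.78 scrambled, 11.04 and 11.07 with miR-224, and 11.46 and 11.54 with miR-452. The miR-224 arrays were the lowest of both lines and overlapped no other group. Of the 4 epithelial markers, EPCAM was lower with miR-224 than scrambled in PC3 (-0.50, limma adjusted p = 0.0203) and DU145 (-1.20, 0.0236). KRT8 was lower in DU145 (-0.48, limma adjusted p = 0.0479). Thus 1 of 4 was lower in PC3, where 16.8% of all genes passed, and 2 of 4 in DU145 (1.94%). The median change of the 4 was -0.03 in PC3 and -0.47 in DU145. In PC3 their mean level was 8.96 to 8.97 with miR-224, 9.05 to 9.17 scrambled and 9.29 to 9.31 untransfected. In DU145 it was 9.67 to 9.76 with miR-224, 10.17 scrambled and 10.32 to 10.34 untransfected. The part of these markers in the heavy chain values was not tested. The HLA-F and HLA-B features read 7.06 and 7.03 with miR-224 in PC3, below 7.56 to 7.76 on the other arrays, and 7.56 and 7.68 in DU145, below 7.88 to 8.19.

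**Figure D4:**
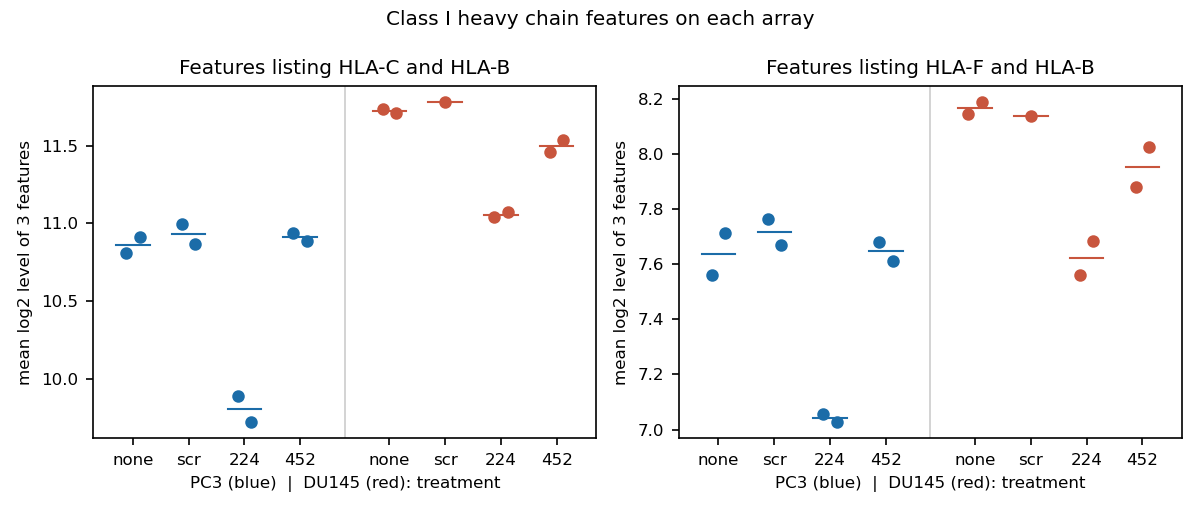
Mean log2 level (vertical axis) of the 3 features listing HLA-C and HLA-B (left) and of the 3 listing HLA-F and HLA-B (right) on each array, PC3 in blue and DU145 in red; points are arrays and bars group means, and the axes do not start at 0. The miR-224 points are the lowest in each line, at 9.89 and 9.72 in PC3 and 11.04 and 11.07 in DU145 on the left.

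The genes whose levels ran most like those of TAP1 and PSMB9 were found by Pearson correlation over the 15 arrays after the mean of each line was taken off. The arrays share treatments and lines, so the values describe likeness only. For TAP1 they were ANXA11, ILK, AP3D1, CARM1 and CABLES2, with r of 0.86 to 0.89. For PSMB9 they were CD68 (r of 0.93), PGAP2, UQCRC1, PRKCD and EFHD2, the last 4 with r of 0.88 to 0.89. None of the 9 members was among them: TAP1 and PSMB9, whose promoter windows overlap, correlated with r of 0.32 (0.51 in PC3 and 0.16 in DU145), and TAP1 and TAPBP with r of 0.63.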

How the data were processed

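RNA of PC3 and DU145 cells was hybridised to 15 Affymetrix arrays. The deposited values are log2 levels, which the authors made with RMA16 normalization in GeneSpring GX 11.0 with each line normalized separately, per the series design text. They excluded 1 DU145 scrambled array for bad performance. The genome build is not given in the sources used here. RMA16 is understood to add 16 before the logarithm, which would understate changes of dim genes.

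Of 28869 features, 19310 carried 1 symbol, 1752 several and 7807 none in the platform annotation. Symbols were updated through the RefSeq gene table (GRCh38.p14), which matched 19279 features, and features of 1 symbol were averaged to 18377 genes with no filter on level. Each line was fitted with limma 3.58.1 (R 4.3.3) with 4 group means and moderated variances; tests are two-sided, adjusted by Benjamini-Hochberg. Line differences came from 1 fit of all 15 arrays. The lone DU145 scrambled array was assumed to vary like the other groups. Features with several symbols were tested in a fit over all 28869 features. The fit was also run on simulated data, drawn independently for each array with the same spread of a gene on all arrays of a line. Such data cannot test how the replicates were made or the assumption about the lone DU145 scrambled array.

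The members and gene lists were chosen with earlier results of these data known. All members were named, with up to 4 genes of each other list by smallest p in PC3 with miR-452, and the 5 genes most like TAP1 and PSMB9. MX1, OAS1 and IFIT1 were chosen after their values were seen. Alternatives were quantile normalization, features with 1 symbol without averaging, features with any or no symbol, a filter on genes under percentile 20, trend and robust moderation, all 15 arrays in 1 fit, an offset of 16 taken off (floor 1), the replicate letter as a block, other controls and each array left out. The number of arrays limits the precision.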

Additional observations from a re-analysis of the deposited data

Results flagged for a closer look

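PSMB9 drew attention because its change with miR-452 against the scrambled mimic differed between the lines, by 0.77 on the log2 scale (PC3 minus DU145, limma adjusted p = 0.0267). In PC3 the change was 0.38 and in DU145 -0.39, the latter against 1 scrambled array, which read 7.71 and was the highest PSMB9 value of that line. The cause was not tested.

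The heavy chain features were noted because they lie outside the genes with 1 symbol and some of them passed with miR-224 against the scrambled mimic. In PC3 against the scrambled mimic, the 3 features listing HLA-C and HLA-B changed by -1.16, -1.13 and -1.09 (limma adjusted p over all 28869 features of 0.00159 to 0.00164), and the 3 listing HLA-F and HLA-B by -0.57, -0.77 and -0.68 (0.00428 to 0.00858). In DU145 the HLA-C and HLA-B features changed by -0.74, -0.73 and -0.69 (adjusted p of 0.0422 to 0.0443), and the HLA-F and HLA-B features, which did not pass, by -0.45, -0.56 and -0.53 (adjusted p of 0.0978 to 0.154). Since the 3 features of a pair may share probes, they are not separate results when an array is left out. With each PC3 array left out, the HLA-C and HLA-B features passed in every fit, with changes of -1.25 to -1.01. The HLA-F and HLA-B features changed by -0.84 to -0.51, and only without miR-224 b did any of them not pass. The lone DU145 scrambled array could not be left out. With each other DU145 array left out, the HLA-C and HLA-B features changed by -0.77 to -0.69. They passed only without either miR-452 array. The HLA-F and HLA-B features changed by -0.61 to -0.38 and passed in no such fit. Under quantile normalization 2 of those 3 features passed in DU145 (adjusted p of 0.0476, 0.0477 and 0.0799). Against untransfected cells every heavy chain feature passed with miR-224, where 9.69% of all genes passed in PC3 and 21% in DU145. Against the scrambled mimic those shares were 16.8% and 1.94%. They are shares of the genes with 1 symbol, and the share of all features that passed is not given here. In PC3 the HLA-C and HLA-B features changed by -1.07 to -1.04 (limma adjusted p of 0.0024 to 0.0025). The HLA-F and HLA-B features changed by -0.69 to -0.49 (0.00798 to 0.0203). In DU145 these ranges were -0.68 to -0.65 (0.01113 to 0.01145) and -0.57 to -0.51 (0.02056 to 0.02475). The lines did not differ past the threshold in the miR-224 changes against the scrambled mimic (adjusted p of 0.182 to 0.867). Which of the listed genes the signal came from cannot be told apart.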

How the results depend on the processing

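Of 8 member changes that passed in the comparisons with alternatives, 142 pairs of a change and an alternative were run: 96 kept the call, 46 lost it and 0 reversed. Of 91 that did not pass, 10 passed under at least 1 alternative and 37 had the other sign under at least 1. Taking the offset of 16 off left 0 members passing for PC3 miR-452 against scrambled, 1 for PC3 miR-224, 0 between the mimics in DU145 and 0 for the line difference with miR-452. With untransfected arrays as the control, 2 passed for PC3 miR-452 (B2M and ERAP1, with PSMB9 lost) and 1 for DU145 miR-452 (ERAP1). For PC3 miR-224 with that control, B2M was lost and TAP2 passed. For the line difference with miR-452, PSMB9 was lost and ERAP1 passed. With the mean of both controls, 2 passed for PC3 miR-452 and 2 for the line difference with miR-452. Quantile normalization gave 1 for PC3 scrambled against untransfected, ERAP1. It also gave 2 between the mimics in DU145, as did features with 1 symbol without averaging (a gene read by its feature of smallest p), the filter on low genes, trend and robust moderation, and 1 fit of all 15 arrays, the second being TAPBP. The 15-array fit left 1 for PC3 miR-224. Features with any or no symbol tested together, an alternative added after seeing the data, left 0 for PC3 miR-452 against scrambled, 1 for PC3 miR-224 and 0 between the mimics in DU145. Quantile normalization moved the median of all genes by at most 0.03.

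With an array left out, the counts ran from 0 to 1 for PC3 miR-452 against scrambled, 0 to 2 for PC3 miR-224, 0 to 1 for PC3 scrambled against untransfected, 0 to 1 for DU145 miR-452, 0 to 2 between the mimics in DU145 and 0 to 1 for the line difference with miR-452. For DU145 miR-224 and DU145 scrambled, and for the line differences with miR-224 and the scrambled mimic, 0 members passed under every alternative run. Between the mimics in PC3 no alternative moved the count of 3 by more than 1.5 times, but the members behind it changed. ERAP1 was lost in the alternatives named above, and TAPBP, lower with miR-452, passed in 4 of 16. Without miR-452 b both occurred. Arrays were left out in turn for the members and the heavy chain features only.

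The labels do not say that letters mark a shared culture or day, and deviations of same-letter arrays correlated with r of -0.15 to 0.27 in PC3 and -0.31 between the DU145 mimics. Untransfected DU145 arrays gave r of 0.03 with miR-224 and 0.05 with miR-452. With the replicate block, 1 member passed for PC3 miR-224, 0 between the mimics in DU145 and 0 for the line difference with miR-452. With the DU145 miR-452 letters crossed, an alternative added after seeing the data, 2 passed between the mimics in DU145 and 0 for the line difference with miR-452. The causes of these moves were not tested.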
